A study of Homo sapiens with 12 samples.

Results

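The transcripts described here are noncoding transcripts that carry the name and Ensembl identifier of a gene that is also listed, as a gene, in the study's mRNA table. They are the rows of the deposited lncRNA table whose gene identifier also occurs in the deposited mRNA table, with the 2 transcripts of DKK1 left out. The rule found 192 of the 536 listed transcripts, which belong to 170 of the 4988 listed genes. Of these 170 genes, 167 are protein coding in RefSeq. The authors had already picked the rows of both tables for a difference between these libraries, so a high share of changed members was built into the material.

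The tumours were labelled as xenografts of Hep3B, an established human hepatocellular carcinoma line, although the study's title speaks of treated cells. Total RNA was sequenced in 3 control libraries and in 3 libraries from the group given bufotalin, a bufadienolide cardiac glycoside of toad venom, a class known for blocking the sodium pump. Neither dose and duration nor route and host animal are stated in the sources used here. Nothing in the labels ties a replicate to its own animal, so the p-values reflect the spread among these samples alone, and part of that spread may be technical.

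Most human protein-coding genes also give rise to transcripts without an annotated reading frame. Some retain an intron, some lack part of the coding sequence, and some are short products of alternative splicing or of alternative transcription starts. Transcripts with premature stop codons are removed in the cytoplasm by nonsense-mediated decay, and retained-intron transcripts are often held in the nucleus or destroyed there by the RNA exosome. Names such as SCAMP3-208 give the gene and a transcript number, and "OT" in a name stands for overlapping transcript. Where a gene's level is estimated from the reads of all its transcripts, a noncoding transcript of the gene is part of that level.

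Values are in FPKM, fragments per kilobase of transcript and per fixed number of mapped fragments, a scale corrected for length. On this scale a transcript never exceeded its gene in any of 1152 pairs of values (tolerance 1e-06 FPKM). The summed FPKM of the listed transcripts of a gene never exceeded the gene's FPKM either. A transcript's FPKM can therefore be read as a share of its gene's FPKM, although how the authors made either value is not given in the sources used here. Strand use in counting is not given either, and 49 members overlap another RefSeq gene, 19 of them a protein-coding one, so reads of overlapping genes cannot be told apart.

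The 6 libraries split by group in both tables. The authors' choice of rows for a difference had built this split in, so nothing is read from it. Correlations of log2 gene values between libraries were 0.985 to 0.992 within a group and 0.885 to 0.900 between groups. For the 192 members, within-group correlations were 0.689 to 0.812 and those between groups were -0.451 to -0.339. The mRNA table listed only 2 of 12 hepatocyte and liver tumour markers: KRT8 at 269 to 647 FPKM, and TF, listed at 0 in every control library and at no more than 0.0402 FPKM with bufotalin. All 3 listed fibroblast markers (of 7) were called lower with bufotalin, with a summed level of 14.9 to 15.8 FPKM in control and 6.77 to 10.01 in bufotalin libraries, but after quantile normalization 1 of the 3 was called lower and 1 had a positive fold change. The endothelial markers listed were EGFL7, lower at 8.45 ± 1.32 against 32.6 ± 0.845 FPKM (mean ± SD, n = 3), and CDH5, higher at 0.943 ± 0.262 against 0.0657 ± 0.0512. The leukocyte marker CSF1R was listed at 3.31 ± 0.150 FPKM in control and 4.99 ± 1.06 in bufotalin libraries, and the haemoglobin gene HBB at 13.4 FPKM in control replicate 3 and 0.367 to 0.552 in the other 5 libraries. Their part in the results was not tested. Only a human genome build is named in the sources used here, so reads of host cells and of the xenografted line cannot be told apart. In bulk RNA, neither can fewer cells of a type and less RNA per cell.

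Most of these noncoding transcripts were lower with bufotalin, and they were low in absolute level. Of 192 members, 171 reached the mean of 0.1 FPKM set for the test, and 142 of these passed it: 44 were higher and 98 lower in bufotalin than in control libraries (limma on log2(FPKM + 0.1), Benjamini-Hochberg adjusted p under 0.05 over the whole lncRNA table). That is 83.0% of the tested members, beside 73.3% of the 465 tested transcripts of the whole table. Members called lower made up 57.3% of those tested, beside 44.1% in the whole table, and members called higher 25.7%, beside 29.2%. When libraries were instead scaled to equal medians, 93 members were called, 54 higher and 39 lower. That scaling moved the median log2 difference of the lncRNA table from -1.74 to -0.12, so the excess of lower over higher calls depended on the scale. Bufotalin libraries had 272 to 290 of the 536 transcripts listed at 0, beside 167 to 186 in control, so such medians can lie near the floor. The scaling raises all bufotalin values relative to control, zeros included. It thus shrinks falls and enlarges rises alike, and cannot settle the split. The log2 fold change went from -3.56 to -1.93 for TRAF4-212 and from 4.27 to 5.89 for SCAMP3-208.

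Their genes were mostly lower as well. Of the 170 genes, 151 reached a mean of 0.5 FPKM and 149 passed the test, 45 higher and 104 lower (limma on log2(FPKM + 1), adjusted over the whole mRNA table). That is 98.7% of those tested, beside 93.2% of the 4273 tested genes. The lower genes made up 68.9% of the tested ones, beside 48.8% in the whole table, and the split stayed between 27.1% and 32.4% higher under every alternative run. The median log2 fold change was -1.05 for the members' genes and 0.13 for all tested genes. The 2 genes that did not pass were NME7 and ZNF598.

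Without any test, all 3 bufotalin values lay on one side of all 3 control values for 170 of the 192 members, 121 below and 49 above. This is 88.5% of members, beside 81.2% of the whole lncRNA table, in which 51.1% lay below and 30% above. In 129 members a whole group was listed at 0: in control for 43 and in bufotalin for 86. Among the 342 transcripts of other genes, 248 had a whole group at 0, which is 72.5% beside 67.2% of members. A value of 0 can be a failed estimate, depth is unknown, and no fold change is given for such members. In the limma fit a group at 0 has no spread, and its distance from the other group depends on the FPKM added. The adjusted p-values given for such members thus take the zeros as measured, and do not show that the transcript was absent. The genes themselves rarely had a whole group at 0: this held for 5 of the 170.

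The median mean level was 0.288 FPKM for the 192 noncoding transcripts, close to 0.259 for the other transcripts of the table, while the median of their genes' means was 5.65 FPKM. Means ran from 0.0291 to 12.8 FPKM, with 163 members under 1 FPKM and 4 at 5 FPKM or more. Over all 6 libraries the median member made up 8.93% of its gene's FPKM, with quartiles of 2.96% and 21.5%. There were 103 members under 10% of their gene, 16 of them under 1%, and 11 over 50%. The 11 were named after their values were seen: SLC1A7-203, MYBPHL-203, WNT2B-OT1, SNCG-204, DLL4-202, THSD8-203, PSG6-207, CYP3A7-203, FAM71F2-204, ABO-201 and PTGDS-209. All 11 came from genes with a mean under 1 FPKM. ABO-201, from the blood group glycosyltransferase gene, had the gene's own value in every library where the gene was above 0: 0.202, 0.149 and 0.160 FPKM in control libraries and 0.00469 in bufotalin replicate 3.

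**Figure D1:**
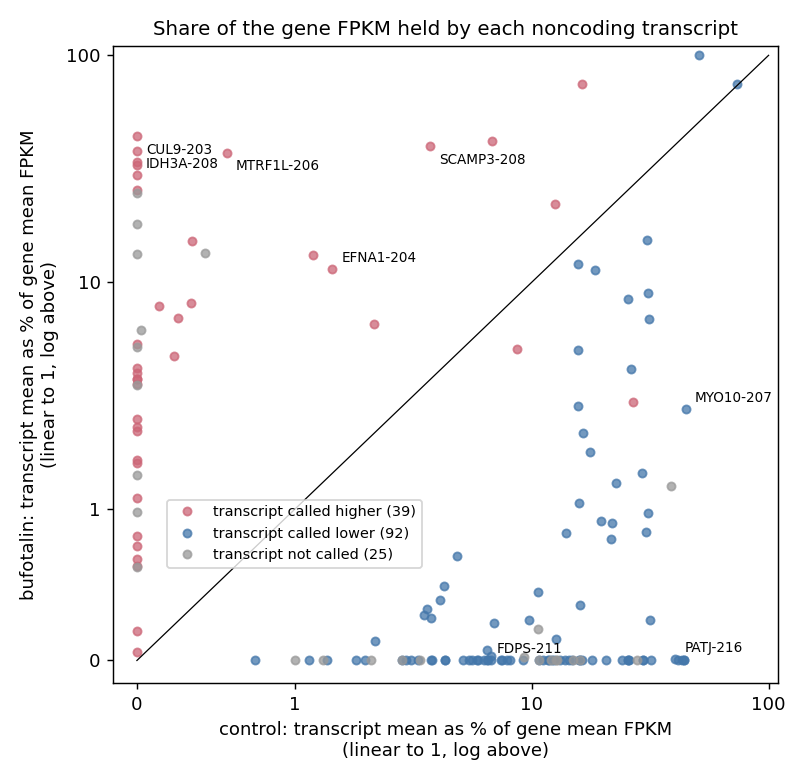
Each point is 1 of the 156 noncoding transcripts whose transcript and gene both reached the minimum for the test; the axes give the transcript's group mean as a percent of its gene's group mean in control (x) and bufotalin (y) libraries, linear to 1 and logarithmic above, with the line of equal shares. Points at 0 on the x axis were listed at 0 in control and points at 0 on the y axis in bufotalin libraries; SCAMP3-208, MTRF1L-206, IDH3A-208 and CUL9-203 lie far above the line and PATJ-216, FDPS-211 and MYO10-207 far below it.

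The share of the gene held by a transcript is a description without a test, since its 2 values come from 2 tables. With 0.1 FPKM added to both values, all bufotalin shares lay above all control shares for 44 of 156 members, below for 44, and overlapped for 68. The 88 members without overlap have a background of 56.3% (28.5% above, 27.8% below) over the 158 tested pairs of both tables, nearly all of which are members, so nothing is read from that count. The split between rising and falling shares moved with the added value: it was 36 above and 81 below with 0.01 FPKM, 80 and 21 with 1 FPKM, and 38 and 94 of 154 members with plain percentages. Scaling to equal library medians gave 86 above and 20 below. So no direction is given for the members as a group, and shares are given below for single transcripts as plain percentages. In 70 members the ratio moved by at least 2-fold without overlap, 35 up and 35 down, with the 0.1 FPKM added.

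Transcript and gene comparisons use the same libraries, so their directions are not independent. Of the members in which both passed, 35 were higher with a higher gene and 88 lower with a lower gene. In 3 members the transcript was higher and the gene lower, and in 4 the transcript was lower and the gene higher. The first 3 were SCOC-OT1, CUL9-203 and PKN3-203. The other 4 were TRAF4-212, RAB10-204, L3MBTL2-206 and LARP1B-208, and none of these 4 transcripts was called when libraries were scaled to equal medians (adjusted p 0.0649 to 0.309, limma), while the first 3 were. That scaling shrinks every fall and enlarges every rise, so no contrast between the 4 and the 3 is read from it.

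Gene-start windows are shown for 4 members that fell while the rest of the gene changed less or rose, and whose first base lies within the window. They let a reader see how close the noncoding transcript starts to the annotated start of the gene. Each is the RefSeq window of 250 bases before to 50 after the gene's start on GRCh38 (table of GRCh38.p14), printed 5′ to 3′ on the gene's strand, which is the plus strand for all 4. Capitals run from the first base of the listed noncoding transcript to the end of the window. The windows are chr1:61742230-61742529 for PATJ, chr17:28743761-28744060 for TRAF4, chr2:26033834-26034133 for RAB10 and chr22:41205062-41205361 for L3MBTL2.
PATJ-216: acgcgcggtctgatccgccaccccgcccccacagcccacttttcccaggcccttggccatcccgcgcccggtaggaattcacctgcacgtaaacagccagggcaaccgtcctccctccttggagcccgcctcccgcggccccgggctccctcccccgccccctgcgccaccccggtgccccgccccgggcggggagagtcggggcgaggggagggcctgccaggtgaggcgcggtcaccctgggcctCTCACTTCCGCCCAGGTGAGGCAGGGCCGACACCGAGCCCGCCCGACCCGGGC
TRAF4-212: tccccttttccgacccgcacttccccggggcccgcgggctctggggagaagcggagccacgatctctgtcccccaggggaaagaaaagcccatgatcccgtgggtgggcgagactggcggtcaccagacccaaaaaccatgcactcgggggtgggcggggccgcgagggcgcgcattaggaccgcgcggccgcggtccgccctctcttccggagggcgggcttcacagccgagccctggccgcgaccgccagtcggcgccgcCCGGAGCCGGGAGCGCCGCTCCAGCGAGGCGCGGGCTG
RAB10-204: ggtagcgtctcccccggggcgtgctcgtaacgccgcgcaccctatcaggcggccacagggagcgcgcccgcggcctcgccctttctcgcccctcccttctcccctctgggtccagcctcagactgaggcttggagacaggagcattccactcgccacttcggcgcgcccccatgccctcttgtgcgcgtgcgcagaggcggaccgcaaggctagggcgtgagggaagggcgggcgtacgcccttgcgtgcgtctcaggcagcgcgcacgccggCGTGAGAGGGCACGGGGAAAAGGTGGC
L3MBTL2-206: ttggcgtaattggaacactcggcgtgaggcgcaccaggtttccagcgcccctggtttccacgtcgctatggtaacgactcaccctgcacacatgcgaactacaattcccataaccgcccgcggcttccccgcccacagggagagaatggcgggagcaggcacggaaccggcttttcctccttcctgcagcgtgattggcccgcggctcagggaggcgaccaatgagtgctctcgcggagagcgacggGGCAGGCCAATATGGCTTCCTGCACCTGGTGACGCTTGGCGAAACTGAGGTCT

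The first transcript base is at position 248 of the window for PATJ-216 and L3MBTL2-206, at 263 for TRAF4-212 and at 274 for RAB10-204, counted from 1 at the 5′ end of the window. PATJ-216 and L3MBTL2-206 thus begin 3 bases before the gene's RefSeq start, and TRAF4-212 and RAB10-204 12 and 23 bases after it. GC content was 76% for PATJ, 73.7% for TRAF4, 71.3% for RAB10 and 62% for L3MBTL2, beside a median of 58.7% over 35116 windows of this length. The GC-box core GGGCGG, searched on both strands with overlaps allowed, occurred 6, 4, 1 and 2 times in that order, and at least once in 45.0% of all windows. CCAAT occurred 4 times in the L3MBTL2 window and in none of the other 3, with a share of 34.6% of all windows. TATAAA was found in none of the 4 and in 11.5% of all windows. These are matches of letters, not sites.

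Among the 149 members with a strand from RefSeq, 41 (27.5%) begin inside such a window of their own gene. This held for 13 of 36 members called higher and for 17 of 73 called lower. All 192 members lie inside the listed locus of their gene. The median span from first to last base, introns included, was 31.6% of the gene's span. Thus 78 members span under 25% of the gene and 30 span over 90%. RAB10-204 (97.9% of the gene's span) and L3MBTL2-206 (97.5%) run nearly the whole gene, and PATJ-216 runs 85.2% of it. TRAF4-212 covers the first 53.4%. CUL9-203 spans 16.0% and SCOC-OT1 10.1%, both from the gene's listed first base.

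**Figure D2:**
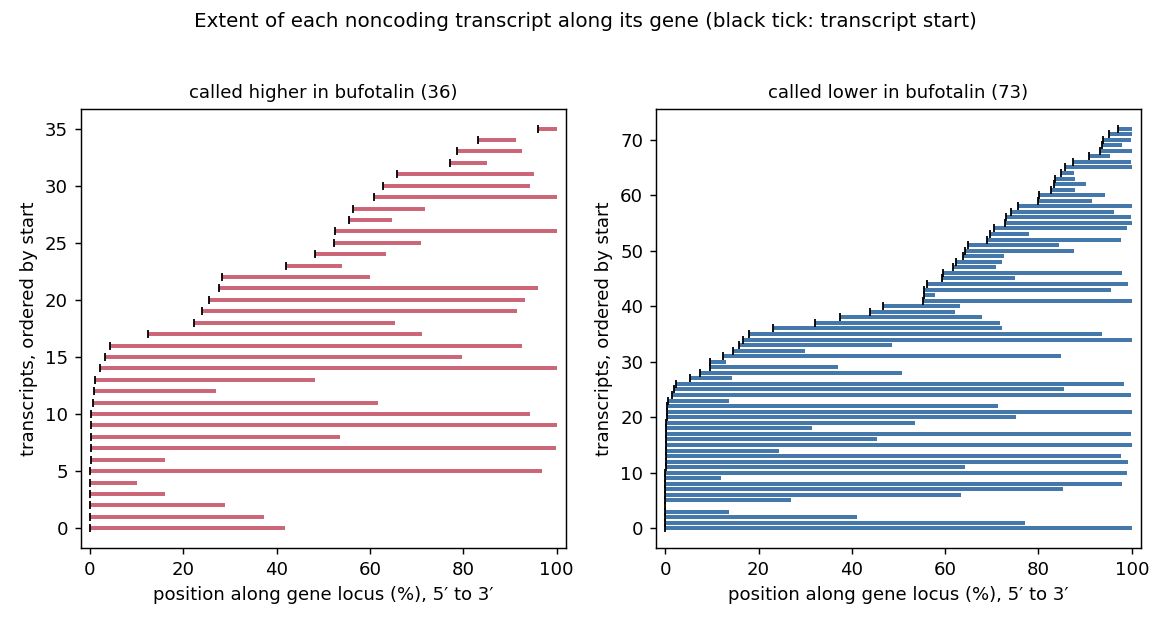
Each bar is the span of 1 noncoding transcript along its gene's listed locus (x, percent, 5′ to 3′), for the 36 members called higher and the 73 called lower that have a strand from RefSeq, ordered by start (y), with a black tick at the transcript's start. In both panels bars reach from short pieces inside the gene to nearly its whole length.

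Among noncoding transcripts that fell while their gene rose, TRAF4-212 was the one with values above 0 in both groups. TRAF4 is an adaptor protein of the family that couples tumour necrosis factor receptors to signalling. TRAF4-212 was at 2.16, 0.339 and 2.34 FPKM in control and at 0.00695, 0.0316 and 0.00539 FPKM in bufotalin libraries. All 3 bufotalin values were far under the lowest control value, with a log2 fold change of -3.56 (SE 0.72, adjusted p = 0.00589, limma). The gene was at 20.6, 25.1 and 26.3 FPKM in control and at 63.5, 36.2 and 40.0 FPKM in bufotalin libraries, without overlap, and its log2 fold change was 0.89 (SE 0.20, adjusted p = 0.00269, limma). The transcript's share of the gene went from 6.72% to 0.0314%. With equal library medians the transcript's log2 fold change was -1.93 (adjusted p = 0.0649, limma).

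The other 3 of this kind were listed at 0 in every bufotalin library. RAB10-204, from the gene of a small GTPase of vesicle transport, was at 0.213, 0.549 and 1.07 FPKM in control libraries (adjusted p = 0.00478, limma). RAB10 itself rose from 53.2 ± 2.07 to 76.8 ± 3.53 FPKM (mean ± SD, n = 3), so its noncoding transcript was only 1.15% of the gene in control. At that share it would have been at 0.882 FPKM with bufotalin.
L3MBTL2-206, from the gene of a Polycomb-group protein that binds methylated histones, was at 0.175, 0.471 and 0.558 FPKM in control libraries (adjusted p = 0.00308, limma). L3MBTL2 rose from 5.34 ± 0.919 to 8.79 ± 1.17 FPKM. This transcript's span also overlaps CHADL and the antisense gene L3MBTL2-AS1. LARP1B-208, from the gene of a La-related RNA-binding protein, was at 0.530, 0.232 and 0.301 FPKM in control libraries (adjusted p = 0.00132, limma). LARP1B rose from 12 ± 1.06 to 16.2 ± 0.559 FPKM. With equal library medians the adjusted p was 0.191 for RAB10-204, 0.309 for L3MBTL2-206 and 0.170 for LARP1B-208 (limma). The RAB10 gene was not called after quantile normalization (adjusted p = 0.0652, limma).

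In the opposite case the noncoding transcript was listed at 0 in every control library while the gene was more abundant there. CUL9-203, from the gene of a cullin scaffold of ubiquitin ligases, was at 0.462, 0.639 and 0.248 FPKM in bufotalin libraries (adjusted p = 0.00132, limma). CUL9 fell from 4.04 ± 0.709 to 1.32 ± 0.122 FPKM (mean ± SD, n = 3; log2 fold change -1.11). The noncoding transcript was thus 36.5%, 43.7% and 20.0% of the gene in bufotalin libraries. At the bufotalin share, control libraries would have held 1.37 FPKM of it. With CUL9-203 subtracted, the rest of CUL9 went from 4.04 to 0.874 FPKM.
SCOC-OT1 lies in the locus of SCOC, a Golgi coiled-coil protein linked to autophagy. It was at 0.411, 0.503 and 0.432 FPKM in bufotalin libraries (adjusted p = 0.00026, limma), a narrow range. SCOC fell from 27.8 ± 1.17 to 12 ± 1.47 FPKM. PKN3-203, from the gene of a protein kinase of the PKN family, was at 0.844, 0.539 and 0.413 FPKM with bufotalin (adjusted p = 0.000498, limma). PKN3 fell from 25.5 ± 1.01 to 15.1 ± 1.01 FPKM.

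**Figure D3:**
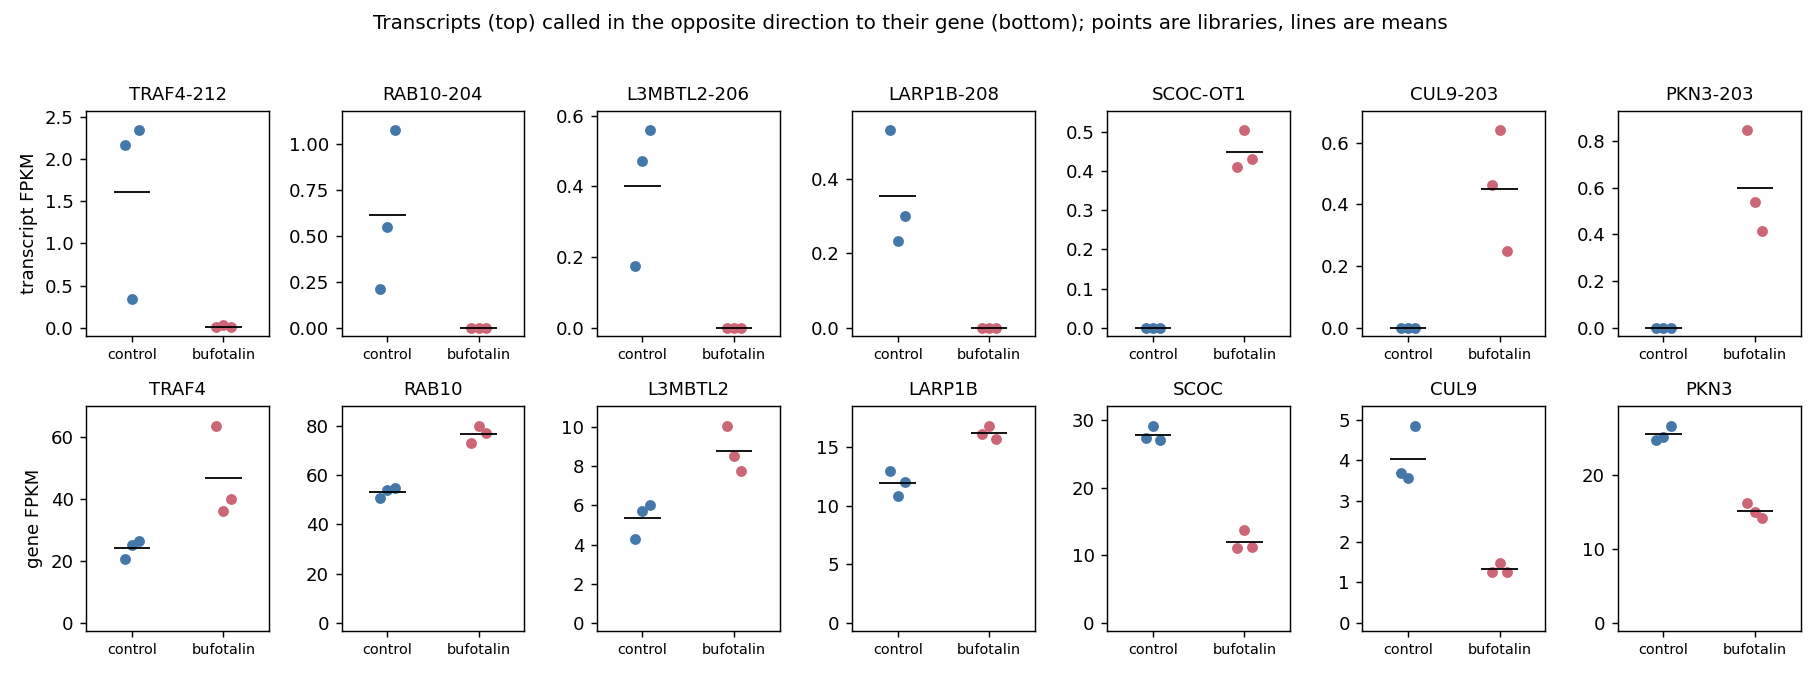
FPKM on linear axes from 0 of the 7 noncoding transcripts that passed the test in the direction opposite to their gene (top) and of the gene (bottom), with a point for each of the 3 control and 3 bufotalin libraries and a line at each group mean. Apart from TRAF4-212, each transcript is listed at 0 in all 3 libraries of 1 group, while every gene is above 1 FPKM in all 6 libraries.

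Going by group means alone, 12 members moved against their gene, 6 each way. The 5 not called on both sides were MYO18A-221, IFT140-204, MAPK12-205, NME7-205 and CTDSP1-208. MYO18A-221, from the gene of an unconventional myosin, was at 1.87 and 1.84 FPKM in bufotalin replicates 1 and 2 and at 0 in replicate 3 and all control libraries (adjusted p = 0.0827, limma). It was called without bufotalin replicate 3 (adjusted p = 0.000854) and with equal library medians (adjusted p = 0.0260). The equal-median scaling raises its bufotalin values relative to control, the 0 included, so that call adds nothing to the evidence for a rise. MYO18A fell from 12.4 ± 1.31 to 5.0 ± 0.871 FPKM. CTDSP1-208 was at 3.25, 0.00189 and 1.5 FPKM in control and at no more than 0.00869 FPKM in bufotalin libraries (adjusted p = 0.0846, limma). Control replicate 2 thus lay under every bufotalin value, and without it CTDSP1-208 was called lower (adjusted p = 0.00119, limma). The gene encodes a small phosphatase of RNA polymerase II, and the span of the transcript overlaps MIR26B.

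For some genes the noncoding transcript, as estimated, made up most of the change recorded for the gene. In the 123 pairs called in the same direction, the transcript's difference between group means was a median of 17% of the gene's difference. It was under 10% in 45 pairs and over 50% in 10. The 10 were MTRF1L-206, PATJ-216, WNT2B-OT1, SCAMP3-208, GPX8-205, POU5F1-203, SLC1A7-203, IDH3A-208, MYO10-207 and PTGDS-209, of which WNT2B-OT1, GPX8-205, POU5F1-203, SLC1A7-203 and PTGDS-209 were named after their values were seen.

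SCAMP3 encodes a membrane protein of endosomal and secretory traffic. SCAMP3-208 was at 0.985, 0.890 and 1.8 FPKM in control and at 22.7, 23.0 and 27.5 FPKM in bufotalin libraries, the highest mean of any member, 12.8 FPKM. The lowest bufotalin value was more than 10-fold above the highest control value, and the log2 fold change was 4.27 (SE 0.36, adjusted p = 0.00028, limma). SCAMP3 as a whole went from 33.0 ± 0.608 to 61.4 ± 4.71 FPKM, with a log2 fold change of 0.87 (SE 0.11). SCAMP3-208 was thus 3.71% of the gene in control and 39.8% in bufotalin, and its difference was 82.0% of the gene's. Without its listed noncoding transcripts, SCAMP3 had a log2 fold change of 0.18 (adjusted p = 0.162, limma). A second listed transcript, SCAMP3-204, was at 0 in control and at 0.860, 0.0452 and 0.605 FPKM in bufotalin libraries (adjusted p = 0.0405, limma). Its call was lost without any 1 library except bufotalin replicate 2 (adjusted p 0.0984 to 0.130) and with 1 FPKM added (0.0731).

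MTRF1L encodes a release factor of mitochondrial translation. MTRF1L-206 was at 0, 0.0371 and 0.0523 FPKM in control and at 3.18, 3.25 and 3.52 FPKM in bufotalin libraries, with a log2 fold change of 4.74 (SE 0.26, adjusted p = 0.000202, limma). The bufotalin values were close together and far from every control value. The gene went from 5.25 ± 0.203 to 8.97 ± 1.13 FPKM, and 88.3% of that difference was in the transcript. Without it, MTRF1L had a log2 fold change of 0.09 (adjusted p = 0.506, limma).

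IDH3A encodes the catalytic subunit of the NAD-dependent isocitrate dehydrogenase of the citric acid cycle. IDH3A-208 was listed at 0 in every control library and was at 16.5, 19.8 and 1.55 FPKM with bufotalin (adjusted p = 0.00249, limma). Bufotalin replicate 3 was thus far under the other 2, and the gene was lowest in the same library, at 31.6 FPKM against 47.2 and 48.5. In that library the gene lay within the control range of 19.3 to 32.3 FPKM. The transcript was 34.9%, 40.7% and 4.88% of the gene in bufotalin replicates 1, 2 and 3. IDH3A had a log2 fold change of 0.75 (SE 0.22) as listed and of 0.28 (adjusted p = 0.134, limma) without the transcript. The span of IDH3A-208 overlaps that of ACSBG1, and reads of the 2 cannot be told apart.

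PATJ encodes a scaffold protein of tight junctions and of the Crumbs polarity complex, and the difference of PATJ-216 was 83.6% of the gene's. PATJ-216 was at 13.6, 3.11 and 13.1 FPKM in control and at 0.0013, 0.00141 and 0 FPKM in bufotalin libraries. Control replicate 2 was low among controls but still far above every bufotalin value, and the log2 fold change was -6.37 (SE 0.63, adjusted p = 0.000487, limma). PATJ went from 24.5 ± 2.00 to 12.7 ± 0.651 FPKM. The transcript was 55.6%, 13.8% and 49.2% of the gene in control replicates 1, 2 and 3 and at most 0.0116% with bufotalin. Without it, PATJ was at a mean of 14.6 FPKM in control and 12.7 in bufotalin libraries, with overlap (log2 fold change -0.16, adjusted p = 0.422, limma). This remainder was uneven in control, and highest in replicate 2, where the transcript's share was lowest.

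MYO10 encodes an unconventional myosin of filopodia. MYO10-207 was at 15, 14.7 and 18.2 FPKM in control and at 0.393, 0.528 and 0.0142 FPKM in bufotalin libraries, with a log2 fold change of -5.60 (SE 0.71, adjusted p = 0.00103, limma). Controls were close together and bufotalin replicate 3 stood lowest. The gene went from 35.8 ± 3.40 to 11.3 ± 1.32 FPKM, and the transcript from 44.6% to 2.77% of it. MYO10 passed the test also without its noncoding transcript: the remainder went from 19.8 to 10.9 FPKM (log2 fold change -0.80, adjusted p = 0.000289, limma).

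**Figure D4:**
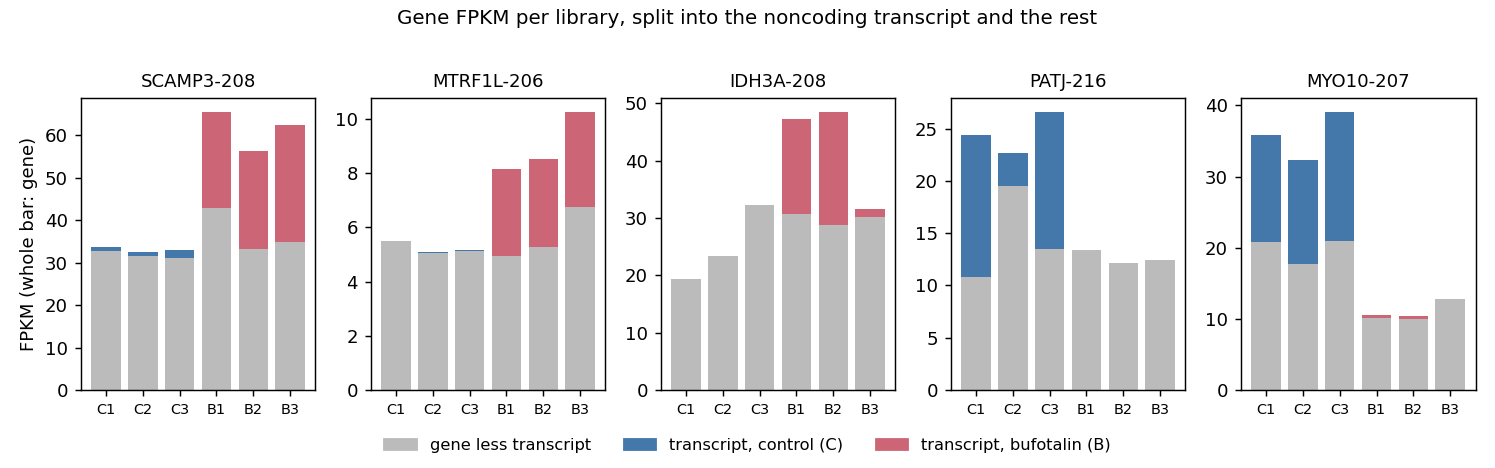
Stacked bars, starting at 0, of the gene's FPKM in each of the 6 libraries (C control, B bufotalin) for 5 genes in which a noncoding transcript made up much of the gene's difference, split into the named noncoding transcript (coloured) and the gene less that transcript (grey). The part held by SCAMP3-208, MTRF1L-206 and IDH3A-208 is larger with bufotalin, and the part held by PATJ-216 and MYO10-207 is nearly gone there.

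When the listed noncoding transcripts were subtracted from every gene, an alternative added after seeing the data, 140 of the 151 tested member genes passed the test and none changed direction. The 10 that no longer passed were PATJ, WNT2B, EFNA1, SCAMP3, IDH3A, EIF2B5, GPX8, POU5F1, MTRF1L and RHPN1. Among them GPX8, a peroxidase of the endoplasmic reticulum, went from a log2 fold change of 0.92 to 0.24 (adjusted p = 0.44, limma). GPX8-205 was at 0.654, 0.667 and 0.215 FPKM in control and at 8.12, 7.90 and 2.54 FPKM in bufotalin libraries, without overlap, and its span also crosses CDC20B. For the pluripotency factor gene POU5F1, the fold change went from 0.34 to 0.08 (adjusted p = 0.614, limma). POU5F1-203 was listed at 0 in control and at 0.135, 0.538 and 0.538 FPKM with bufotalin. POU5F1 has near-identical processed copies elsewhere in the genome, so its values are uncertain. The ephrin ligand gene EFNA1 went from 0.35 to 0.20 (adjusted p = 0.22, limma), with EFNA1-204 at 0.402 to 0.410 FPKM in control and 3.07 to 4.84 FPKM with bufotalin.

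Among the other large rises, LAMA1-203 comes from the gene of the laminin alpha-1 chain of basement membranes. It was at 0.0151, 0.0453 and 0.0264 FPKM in control and at 4.72, 2.63 and 4.46 FPKM in bufotalin libraries (log2 fold change 4.93, SE 0.31, adjusted p = 0.000202, limma). LAMA1 also rose, from 8.34 ± 1.12 to 25.9 ± 3.70 FPKM, and the transcript went from 0.347% to 15.2% of it. PKMYT1-215, from the gene of a kinase that holds CDK1 inactive, was at 0.00700, 0.00462 and 0.0686 FPKM in control and at 1.39, 2.69 and 4.24 FPKM with bufotalin (log2 fold change 4.41, SE 0.47). Bufotalin values spread 3-fold, all above control, and the span crosses PAQR4. ORC6-208, from the gene of an origin recognition complex subunit, was listed at 0 in control and was at 1.90, 2.31 and 1.52 FPKM with bufotalin (adjusted p = 0.000202, limma). ORC6 went from 24.7 ± 1.48 to 35.7 ± 2.03 FPKM, so ORC6-208 was 5.36% of the gene with bufotalin.

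The noncoding transcripts of very abundant genes were a small share even when called. HSPA8-209 comes from the gene of the constitutive heat shock chaperone Hsc70 and its span crosses SNORD14C. It was at 0 in control and at 0.289, 1.38 and 2.69 FPKM in bufotalin libraries (adjusted p = 0.00645, limma), which is 0.196% of HSPA8. ERH-201 was at 0 in control and at 1.85, 0.386 and 1.85 FPKM with bufotalin (adjusted p = 0.00285, limma), or 0.760% of ERH, and its span crosses GALNT16. The ERH gene passed the test at 0.36 on the log2 scale (adjusted p = 0.0295, limma), and not after quantile normalization (adjusted p = 0.706) or without control replicate 3, bufotalin replicate 2 or bufotalin replicate 3 (0.0558 to 0.0868).

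Several calls rested on libraries that differed widely. LPL-203, from the gene of lipoprotein lipase, was at 0.216, 0.154 and 0.285 FPKM in control and at 12.2, 16.1 and 0.773 FPKM in bufotalin libraries (log2 fold change 4.15, SE 1.19, adjusted p = 0.0221, limma). The call was lost without any 1 of the libraries except bufotalin replicate 3 (adjusted p 0.0583 to 0.0786), while the LPL gene itself was even, at 198, 211 and 205 FPKM with bufotalin. AOX1-205, from the gene of aldehyde oxidase, was at 0 in control and at 0.0622, 2.90 and 4.03 FPKM with bufotalin (adjusted p = 0.0459, limma). Its call was lost without any 1 library except bufotalin replicate 1 (adjusted p 0.113 to 0.141) and with 1 FPKM added (0.0824). ZNF598-207 was at 0.0370, 0.109 and 0.108 FPKM in control and at 6.82, 0.554 and 2.38 FPKM with bufotalin (log2 fold change 3.63, SE 0.89, adjusted p = 0.0121, limma, and 0.0526 with 1 FPKM added). ZNF598, a ubiquitin ligase that senses collided ribosomes, was at 52.6, 44.5 and 23.1 FPKM with bufotalin, the last within the control values of 23.2 to 25.5. The gene did not pass (adjusted p = 0.0594, limma), and did so without bufotalin replicate 3 (adjusted p = 0.000272).

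This unevenness was common. On log2(FPKM + 0.1), the median within-group SD was 0.478 for the members and 0.228 for their genes, and 154 of 192 members had a larger SD than their gene. The transcripts are also far lower in level than the genes. In their higher group, 49 members had libraries at least 10-fold apart, and none of the genes did. The extreme was YAP1-206, from the gene of the transcriptional coactivator of the Hippo pathway. It was at 31.2 FPKM in bufotalin replicate 1, and at 0.139 and 0.0706 FPKM in replicates 2 and 3, beside 0.0937 to 0.155 in control (adjusted p = 0.336, limma). YAP1 itself was at 75, 67.9 and 90.3 FPKM in those 3 libraries. KAT6A-216, named after its values were seen, was at 3.46 FPKM in bufotalin replicate 3 and at 0.0525 FPKM or less in the other 5 libraries (adjusted p = 0.242, limma).

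**Figure D5:**
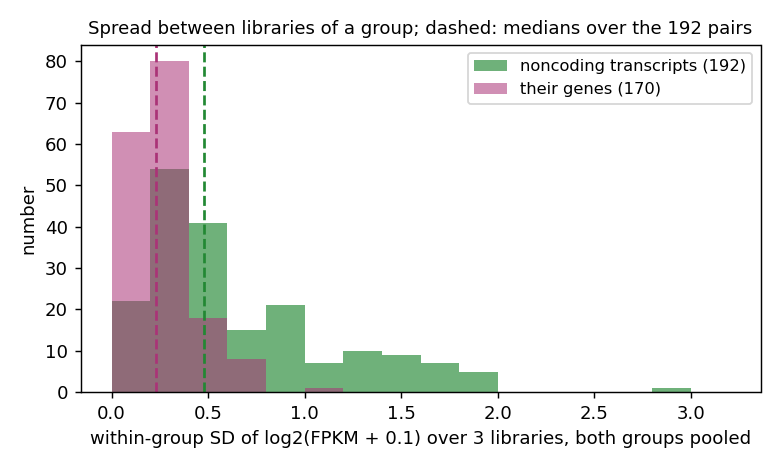
Number of noncoding transcripts and of their genes (y) by the within-group SD of log2(FPKM + 0.1), both groups pooled (x), with dashed lines at the medians. The transcripts reach further to the right, with a median SD of 0.478 beside 0.228 for the genes.

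Among the falls, FDPS-211 had the highest control level that went to 0. FDPS encodes farnesyl diphosphate synthase of the mevalonate pathway. FDPS-211 was at 11.2, 12.6 and 5.29 FPKM in control and listed at 0 in all bufotalin libraries (adjusted p = 0.000202, limma). FDPS fell from 149 ± 13.3 to 87.1 ± 7.75 FPKM, so at the control share of 6.51% the transcript would have been at 5.67 FPKM with bufotalin. Its span also crosses RUSC1-AS1. VPS39-207, MRPS16-203 and ADGRD1-214 were likewise at 0 with bufotalin. VPS39, a subunit of a lysosomal tethering complex, had the transcript at 2.33, 1.24 and 1.90 FPKM in control (adjusted p = 0.000214, limma). MRPS16, a mitochondrial ribosomal protein gene, had it at 1.96, 1.18 and 1.05 FPKM (adjusted p = 0.000215, limma). For ADGRD1, an adhesion G protein-coupled receptor, it was at 1.36, 1.33 and 2.62 FPKM (adjusted p = 0.000244, limma). Their genes all fell, by 1.28, 0.91 and 1.62 on the log2 scale.

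Of the 129 members with a whole group at 0, 21 would have been at 0.5 FPKM or more in that group had they kept the share of the gene seen in the other group. IDH3A-208 (7.42 FPKM), FDPS-211 (5.67) and MYO18A-221 (3.07) had the highest such values. These levels rest on group means of uneven libraries. IDH3A-208 and MYO18A-221 were far lower in bufotalin replicate 3 than in the other bufotalin libraries, and MYO18A-221 did not pass the test (adjusted p = 0.0827, limma). For 62 the level would have been under 0.1 FPKM, so for these a 0 may not be distinguishable from the gene's own change at an unknown depth.

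R3HDM2-203 and NIT1-211 fell with uneven controls. R3HDM2-203 was at 0.363, 4.65 and 4.40 FPKM in control and at 0.0207, 0.0327 and 0 in bufotalin libraries (log2 fold change -4.20, SE 0.98, adjusted p = 0.01, limma). It was not called after quantile normalization (adjusted p = 0.0590) or with equal library medians (adjusted p = 0.0831). NIT1-211, from the gene of an amidase of metabolite repair, was at 8.65, 0.214 and 6.90 FPKM in control and at 0, 0 and 0.0391 with bufotalin. Its adjusted p was 0.0249 (limma), and 0.0668 to 0.0833 without any 1 library except control replicate 2. It was not called either after quantile normalization (0.0674), with equal library medians (0.111) or with 1 FPKM added (0.0648).

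In all, 15 genes had more than 1 member, 37 members together, and members of a gene share its reads and are not replicates. PDE10A, a phosphodiesterase of cyclic nucleotides, had 5, the most. PDE10A-202 was at 2.39, 2.15 and 2.25 FPKM in control and at 0 in all bufotalin libraries (adjusted p = 0.000177, limma). PDE10A-204 was at 2.36, 2.42 and 2.88 FPKM in control and at 0.112, 0.0530 and 0.159 with bufotalin (log2 fold change -3.70, SE 0.29, adjusted p = 0.000231, limma). Controls were tight for both, and groups far apart. PDE10A-OT1 was at 1.02, 0.331 and 2.55 FPKM in control and at 0.00206, 0.0226 and 0.0596 with bufotalin (log2 fold change -3.11, SE 0.69, adjusted p = 0.00837, limma). PDE10A-OT1 was not called with 1 FPKM added (adjusted p = 0.0515), after quantile normalization (0.0689) or with equal library medians (0.132). PDE10A-219 passed the test at the margin (adjusted p = 0.0473, limma), which quantile normalization (0.147), equal library medians (0.506), 1 FPKM added (0.149) and 4 of the 5 fits without 1 library did not keep (0.0531 to 0.118), while without control replicate 3 its mean was under the minimum. PDE10A-222 did not pass (adjusted p = 0.0827). The gene fell from 59.7 ± 6.24 to 21.9 ± 3.01 FPKM, a log2 fold change of -1.41, so each of the first 3 took a smaller share of the gene with bufotalin.

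SELENBP1, a selenium-binding methanethiol oxidase, had 3 members. SELENBP1-212 was at 7.40, 1.54 and 10.3 FPKM in control, and SELENBP1-214 at 1.18, 7.73 and 0.659 FPKM. Control replicate 2 was thus the low library for the first and the high one for the second. With bufotalin the first was at 0 throughout and the second at 0, 0.0346 and 0 (adjusted p = 0.00115 and 0.00781, limma). SELENBP1-214 was not called with 1 FPKM added (adjusted p = 0.0713, limma) or with equal library medians (adjusted p = 0.0590). SELENBP1-218 did not pass (adjusted p = 0.0767, limma), though it did with 0.01 FPKM added (adjusted p = 0.0379). The gene was even in control, at 12.7, 15.2 and 15.9 FPKM, and fell to 1.27 ± 0.253 FPKM with bufotalin. TRIM16L-216 was at 3.65, 2.74 and 12.3 FPKM in control and at 0.0367, 0.0112 and 0.0561 with bufotalin (log2 fold change -5.26, SE 0.61), and TRIM16L-207 was lower too (adjusted p = 0.000619, limma). TRIM16L is a near copy of TRIM16, so its reads are uncertain.

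The pregnancy-specific glycoproteins are secreted relatives of the CEA family, encoded by near-identical genes on chromosome 19, so reads may be split between them. All 3 PSG4 and all 3 PSG5 members were called higher. PSG4-210 was at 0.0582, 0.0703 and 0 FPKM in control and at 3.56, 4.24 and 5.61 FPKM in bufotalin libraries (log2 fold change 5.01, SE 0.33, adjusted p = 0.000212, limma). PSG4 went from 0.341 ± 0.200 to 20.2 ± 5.70 FPKM. PSG5 rose from 0.0620 ± 0.0176 to 21.7 ± 3.50 FPKM, and its noncoding members stayed under 0.7 FPKM. PSG5-203 and PSG5-204 were at 0 in control and were 1.60% and 1.65% of the gene with bufotalin, a plain share that was higher with bufotalin, while the ratio with 0.1 FPKM added was lower. PSG5 in control lay under the added value. PSG6-207 was listed at 0 in control like its gene, and was 50.5% of PSG6 with bufotalin.

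Other genes with 2 members each were KIF17, SCAMP3, PGGHG, RGS11, RGL3, PROM2, DES, ADAP1, RHPN1 and CPAMD8. DES encodes desmin of muscle and mural cells, and reads of host cells cannot be told apart for it either. DES-202 was at 0.455, 0.144 and 0.195 FPKM in control and DES-204 at 0.270, 0.116 and 0.694 FPKM, and both were listed at 0 with bufotalin (adjusted p = 0.00544 and 0.0130, limma). Neither was called after quantile normalization (adjusted p = 0.0561 and 0.0875, limma) or with equal library medians (adjusted p = 0.747 and 0.612), and DES-204 was not called with 1 FPKM added (adjusted p = 0.0616). DES went from 2.01 ± 0.509 to 0.0646 ± 0.0341 FPKM. RHPN1-202 and RHPN1-203 were both at 0 with bufotalin (adjusted p = 0.00356 and 0.0184, limma). Neither was called after quantile normalization (adjusted p = 0.0707 and 0.0523, limma) or with equal library medians (adjusted p = 0.347 and 0.371). RHPN1-203 was also not called without any 1 library except control replicate 2 (adjusted p 0.0561 to 0.0607).

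A parallel fall, in which the share of the gene changed little, is shown by UCP2, chosen after its values were seen. UCP2 encodes a mitochondrial uncoupling protein. UCP2-208 was at 7.04, 7.57 and 4.42 FPKM in control and at 0.430, 0.209 and 0.429 with bufotalin (log2 fold change -3.83, SE 0.39), and was 15.7% and 12% of the gene in the 2 groups. All its bufotalin values lay under all control values.

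The 7 transcripts with "OT" in their name were WNT2B-OT1, R3HCC1L-OT1, ADAM11-OT1, ZBTB20-OT4, SCOC-OT1, PDE10A-OT1 and FAM9B-OT2. Of the 6 that were tested, 5 were called higher and PDE10A-OT1 lower, beside 29.2% called higher and 44.1% lower in the whole lncRNA table, and with so few nothing is read from that count. WNT2B-OT1, in the locus of a Wnt ligand, was at 0.0240, 0 and 0.0557 FPKM in control and at 1.39, 1.22 and 0.333 FPKM with bufotalin (log2 fold change 2.93, SE 0.54, adjusted p = 0.00413, limma). It was 75% of WNT2B with bufotalin and 16.3% in control, where the gene was at 0.163 FPKM.

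Genes of the machinery that splices or removes such transcripts were read from 5 lists, none of which holds a gene of a member. Some of the genes in these lists are in the mRNA table, of which 44.3% were called higher and 48.8% lower. Of 11 listed nonsense-mediated decay factors (of 16), 8 were called higher and 1 lower. The number higher was 6 to 8 without 1 library, 6 with a replicate block, 7 after quantile normalization and 10 with equal library medians. SMG5, which takes part in releasing the decay factor UPF1, went from 24.7 ± 3.18 to 78.6 ± 2.3 FPKM (log2 fold change 1.64, adjusted p = 3.38e-06, limma). UPF3A, which binds the exon junction complex, went the other way, from 15.7 ± 2.15 to 6.72 ± 0.333 FPKM (log2 fold change -1.11, adjusted p = 2.56e-05, limma). The median log2 fold change of the 11 was 0.39, beside 0.13 over all tested genes.
All 5 listed nuclear RNA surveillance genes (of 19) were called higher, with a median of 0.45. The number was 4 without control replicate 3, without bufotalin replicate 2 or without bufotalin replicate 3. Of 9 listed genes of the spliceosome core (of 30), 8 were called higher. This fell to 5 after quantile normalization and to 6 without bufotalin replicate 2. Of 6 listed SR proteins and CLK kinases (of 20), 5 were called higher. This fell to 3 after quantile normalization, and to 3 without bufotalin replicate 2 or without bufotalin replicate 3. SRSF3, a splicing activator, went from 25.3 ± 4.75 to 48.3 ± 4.74 FPKM, and CLK1, a kinase of SR proteins, from 18.0 ± 1.45 to 32.1 ± 1.95. Of 12 listed hnRNP genes (of 24), 7 were called higher and PTBP2 lower. Without bufotalin replicate 2 the number higher was 4, and without bufotalin replicate 3 it was 3. After quantile normalization 1 was called higher and 8 of the 12 had a positive fold change.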

How the data were processed

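The total RNA files deposited by the authors hold FPKM by gene (mRNA) and by transcript (lncRNA), only for features that the authors listed as different. The submitters' processing notes name the build GRCh38 and, among tools, DESeq2 1.20.0, HISAT2 2.0.5, fastp, CASAVA 1.8 and featureCounts 1.5.0-p3; which tool made which values, the selection rule and strand use are not given in the sources used here. Per the labels' protocols, TRIzol was used for extraction and a NEBNext Ultra kit for the libraries. FPKM keeps no depth: among 244 ratios of transcript values under 0.1 FPKM in pairs of libraries, no more than 2 from 1 pair agreed to 3 decimals (9 among 1737 for genes), so depth is unknown and no interval or floor is given. The small RNA tables were not used here.

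Whole tables were fitted with limma 3.58.1 in R 4.3.3 (trended, robust eBayes, 2-sided, Benjamini-Hochberg, threshold 0.05): log2(FPKM + 0.1) of transcripts whose mean reached 0.1 FPKM, and log2(FPKM + 1) of genes whose mean reached 0.5 FPKM. Fold changes are on these scales and understate changes of low features. The fits were tested on simulated data, with 20 transcripts each at log2 changes of 1, 2 and 3. Of these, 2, 12 and 17 were recovered, with 1 false call among the unchanged rest of 465 tested. Of 67, 67 and 66 genes, 63, 67 and 66 were recovered, with 14 false calls among the unchanged rest of 4273. Far fewer features changed there than were called in the real tables, so it does not give the error rate of the reported calls. The transcript to gene ratio used 0.1 FPKM added to both values and no test. Alternatives were other pseudocounts, no minimum, quantile normalization, equal library medians, limma without trend and robust fitting, a replicate block and leaving out each library. Subtracting the listed transcripts from the gene, and a ratio without pseudocount, were added after seeing the data.

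Members, lists and tests were chosen with earlier results of these data known. Named members were the 12 largest rises and 12 largest falls called without overlap, all called opposite to their gene, the 8 largest ratio changes each way without overlap, the 5 highest means and all that share a gene; others were chosen after their values were seen. Same-numbered libraries did not deviate together (correlations -0.0518 to 0.0263), so the numbers were not taken as pairs. All 192 members matched RefSeq genes (GRCh38.p14), and strand and start windows were found for 149. Python 3.11.15, numpy 2.4.6, pandas 2.3.3 and matplotlib 3.10.9 were also used.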

Additional observations from a re-analysis of the deposited data

How the results depend on the processing

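Of the members, 142 were called as reported. Scaling to equal library medians gave 93, with 54 higher and 39 lower, of which 83 were among the 142. The count was 121 to 158 under the other alternatives and 132 to 139 when each library was left out in turn. No member called in both changed direction. Their genes numbered 149 called, 135 to 168 under the alternatives and 143 to 152 without 1 library, again with no change of direction. Shares of the gene without overlap numbered 88, and 101 to 132 under the alternatives that kept all libraries. Without 1 library the number was 92 to 101, but fewer libraries separate more easily, so this range does not measure stability. The replicate block gave 141 called members, all among the 142, and 150 genes. The shared numbers are not known to pair the libraries. Among single named results, the block ended the calls of PDE10A-219 (adjusted p = 0.0523, limma) and of the ERH gene (adjusted p = 0.0568, limma), and brought in the ZNF598 gene (adjusted p = 0.0494, limma). Of 105 named transcript or gene results, 92 kept their side of the threshold after quantile normalization and 82 with equal medians. Depth is unknown, so a value of 0 has no upper limit here.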
